A study of Mus musculus with 15 samples.

Results

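Spermatogonia of 3-day-old mice that lack functional Akt1s1 (KO) were set against wild-type (WT) spermatogonia of the same age, in 5 of the 15 RNA-seq libraries of the series. These are the KO libraries 16 and 18 and the WT libraries 13, 14 and 15, named by the number in their titles. All mice carried a Pou5f1-GFP transgene, in which the promoter of the gene for OCT4 drives a green fluorescent protein, and cells were taken from enzyme-digested testes by fluorescence. The KO mice carried an Akt1s1 null allele whose deleted part the labels do not describe. The other 10 libraries, from mice of 7 days post partum (dpp) and from adults of 2 to 3 months in both genotypes, entered the fit and a comparison of ages. Whether the libraries of a group stem from different animals is not in the labels, and p-values therefore reflect the spread among these libraries alone, possibly a technical one. Of 27128 gene names, 15634 had a deposited signal of at least 1 in at least 2 of the 5 libraries and were tested.

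Akt1s1 encodes PRAS40, a subunit of the kinase complex mTORC1 that binds its scaffold raptor and restrains the kinase until AKT phosphorylates it. When active, mTORC1 promotes translation, ribosome production and lipid synthesis and holds back autophagy. In the mouse testis the mTORC1 pathway is known for its part in the balance between self-renewal and differentiation of spermatogonia. Around day 3 after birth, prospermatogonia resume division and give rise to the first spermatogonia.

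Germ cell transcripts were high in all 5 libraries. The RNA helicase gene Ddx4 had a signal of 527.9 and 455.7 in KO 16 and KO 18, against 509.8, 555.0 and 581.0 in WT 13, WT 14 and WT 15, and these ranges overlapped. Dazl had 1218 and 1050 in KO, against 1289, 1229 and 1422 in WT, and Zbtb16 77.0 and 51.5, against 89.2, 79.6 and 91.0. Both were lower without overlap. Dnd1 was higher without overlap, at 116 and 121, against 101, 85.1 and 90.7. Such separation occurred in 41.1% of all tested genes. Pou5f1 had 141 and 164 in KO, against 173, 158 and 234 in WT, and overlapped, as did Sall4, Gfra1, Lin28a and Utf1. Somatic markers differed between single libraries. The 23 Sertoli cell markers summed to 846.1 in KO 16 and 2388 in KO 18, against 2204, 2272 and 1623 in the WT libraries, so that KO 16 was the lowest. The 9 Leydig cell markers summed to 44.5 and 137 in KO and to 656, 102 and 85.3 in WT, with WT 13 the highest by far. The unplaced gene name LOC672857 held 2.97% of the signal in KO 18 and 0.1005% to 0.204% in the other 4 libraries. Fewer cells of a type and less RNA per cell cannot be told apart in such samples. Both KO libraries had a higher total signal (1183294 and 1178330) than the WT libraries (1022969, 1002649 and 1086085). Each signal behaves as TPM times 1 factor per library, so these totals carry that factor and do not give the depth. The number of reads behind the signal is unknown. Over the tested genes, the Pearson correlation of log2(signal + 1) between KO 16 and KO 18 was 0.970. KO 16 correlated more with WT 15 (0.974), and pairs of a KO and a WT library had 0.962 to 0.974. Pairs of WT libraries had 0.982 to 0.986.

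At 3 dpp, 760 genes (4.86% of those tested) were higher and 1218 (7.79%) lower in KO than in WT, by limma on log2(signal + 1) with an adjusted p under 0.05. Of these, 117 were at least 2-fold higher and 149 at least 2-fold lower, and 286 were provisional gene models, which are counted but not described. With all libraries brought to an equal total signal, the median log2 difference of all genes moved from -0.05 to -0.21, and the split became 327 higher against 3130 lower. The total of 1978 fell to 790 without KO 18, 1073 without WT 13 and 986 without WT 14. In a fit of the 5 libraries alone, where the spread is estimated from fewer samples, 72 genes passed (0.461%), 41 of them higher and 31 lower. Of 181 genes chosen by a rule on rank, list and position, 146 lost their call in that fit, and calls that held there are named as such. Akt1s1 itself had a signal of 35.2 and 33.4 in KO, against 52.4, 51.0 and 49.4 in WT, and fell by 0.56 ± 0.10 (log2 difference ± SE, adjusted p = 0.00575).

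The strength of the difference followed transcript length. Short transcripts were higher and long transcripts lower in both KO libraries. Grouped by the longest transcript of each gene into 5 bins of 2740 genes, the median log2 differences from shortest to longest were 0.21, 0.08, -0.02, -0.12 and -0.28. In the shortest bin 13.3% of genes were called higher and 1.496% lower, whereas in the longest bin 0.693% were called higher and 23.1% lower. Over 13700 genes (no independent replicates), Spearman's rho was -0.46 with the longest transcript and -0.30 with the median length over a gene's transcripts. The same rho with the longest transcript was 0.15 at 7 dpp and -0.02 in adults. Library by library, the deviation from the mean of the 5 libraries had a rho of -0.31 and -0.39 in KO 16 and KO 18, against 0.36, 0.33 and 0.17 in WT 13, WT 14 and WT 15. The groups did not overlap, and the exact permutation test gave p = 0.2 (two-sided), the smallest that 2 against 3 libraries allow. With each library's trends with median length and GC content removed, 424 genes were higher (3.09% of 13700) and 824 lower (6.01%). With the trends of the longest transcript and GC content removed, an alternative added after the data were seen, 260 were higher (1.9%) and 336 lower (2.45%). Of 1753 called genes with a known length, 173 stayed called higher and 298 lower in that last setting. It is called the length-corrected fit below, although it removes the GC trend too. Spearman's rho of the log2 difference with GC content was 0.26 at 3 dpp, 0.28 at 7 dpp and -0.12 in adults. How far length or GC content accounts for a call lost in that fit was not tested.

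**Figure D1:**
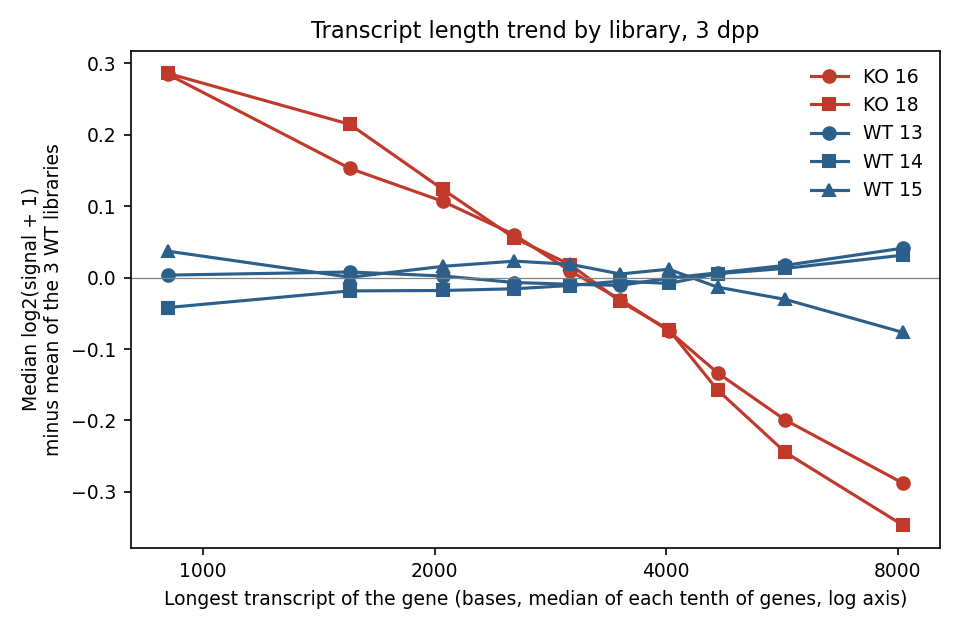
Median difference of log2(signal + 1) from the mean of the 3 WT libraries, for bins of genes ordered by their longest transcript (bases, log axis). Both KO libraries (red) run from above 0 at short transcripts to below 0 at long ones (0.29 to -0.29 in KO 16, 0.29 to -0.35 in KO 18). The WT libraries (blue) are set against their own mean and so lie around 0. WT 15 runs from 0.04 to -0.08.

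Genes that write and erase histone methylation were among the long genes that fell. Of 43 tested, 1 was higher and 16 were lower, with a median log2 difference of -0.32, against -0.05 over all tested genes. Over all tested genes 4.86% were higher and 7.79% lower, and 1.9% and 2.45% after length correction. These shares stand beside the counts of every list below. The median longest transcript of this list was 5953 bases. Phf8, an X-linked demethylase gene, had a signal of 11.7 and 10.6 in KO, against 21.2, 20.9 and 19.07 in WT, and fell by 0.82 ± 0.12 (adjusted p = 0.00157). The demethylase gene Kdm7a had 10.8 and 7.58 in KO and 18.3, 20.7 and 20.98 in WT (-1.06 ± 0.20). Neither gene's groups overlapped, as in 41.1% of all tested genes and 1970 of the 1978 called ones. In the length-corrected fit 0 members were higher and 4 lower, namely Phf8 (-0.60), Kdm7a (-0.63), Kdm4a (-0.58) and Rbbp5 (-0.54), the last a core subunit of the methyltransferase complexes of the MLL family. The list had 10 lower members without WT 13 and 8 without WT 14. Without KO 18 it had 1 gene higher and 1 lower, and the calls of Kdm7a, Kdm4a and Rbbp5 ended (adjusted p = 0.0681, 0.0784 and 0.0732).

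Chromatin remodelling genes and the complexes that hold and fold chromosomes were lower in the same way. Of 44 remodelling genes, 1 was higher and 14 lower, with a median of -0.23 and a median longest transcript of 6595 bases. Baz1b, whose product is a subunit of ISWI remodelling complexes, had 88.5 and 63.3 in KO, against 135, 133 and 118 in WT, and fell by 0.77 ± 0.11. The remodeller genes Atrx and Chd1 fell by 0.83 ± 0.15 and 0.78 ± 0.14. In the length-corrected fit 2 members were higher and 1 lower, against 1.9% and 2.45% of all genes. Of Baz1b, Atrx and Chd1, Baz1b alone passed there (-0.51, adjusted p = 0.0132). Of 27 cohesin, condensin and SMC genes, 0 were higher and 12 lower, with a median of -0.28. Smc2, a core condensin subunit, had 56.3 and 45.9 in KO, against 74.0, 75.6 and 85.04 in WT (-0.61 ± 0.10), and was the only one of the list lower after length correction (-0.33), with 0 higher. Without KO 18 the cohesin and condensin list had 2 lower members, and the remodelling list had 5. Without WT 13 or WT 14 the remodelling list had 5 or 4.

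Nuclear pore and mitotic genes included some that stayed lower after length correction. Of 28 nuclear pore genes, 1 was higher and 8 lower, and 0 and 3 in the length-corrected fit. Ranbp2, the giant nucleoporin of the cytoplasmic filaments, had 103 and 90.3 in KO, against 151, 171 and 171 in WT (-0.76 ± 0.08), and was called in the 5 libraries alone (adjusted p = 0.0469). Nup98 and Nup153 fell by 0.73 ± 0.10 and 0.58 ± 0.08, and all 3 passed after length correction. Of 61 mitosis genes, 2 were higher and 14 lower, and 2 and 4 after length correction. Knl1, the kinetochore scaffold that recruits the spindle checkpoint, fell by 1.09 ± 0.15, with 12.3 and 8.91 in KO and 22.0, 23.5 and 25.3 in WT. Its length-corrected difference was -0.63 (adjusted p = 0.00746). The mitotic kinesin gene Kif20b and the cytokinesis gene Anln fell by 0.78 ± 0.12 and 0.37 ± 0.07. Kif20b passed after length correction (-0.41) and Anln did not (-0.21, adjusted p = 0.111), nor did Anln pass without KO 18 (adjusted p = 0.0674). Of 80 kinesin, dynein and myosin genes, 5 were higher and 12 lower, and 2 and 3 after length correction. All tested genes had 4.86% higher and 7.79% lower, and 1.9% and 2.45% after length correction, and the corrected motor counts lie near these. Without KO 18 the mitosis list had 0 higher and 4 lower members, the motor list 1 and 5, and the nuclear pore list 0 and 5. The motor list had 6 lower members without WT 14 and 7 without WT 13, and the nuclear pore list had 5 without WT 14.

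Mitochondrial ribosomal protein genes, which build the ribosomes that translate the mitochondrial genome, were higher as a group and lie at the short end of the length range. Of 78 tested, 22 were higher and 0 lower, the median was 0.31, and all 78 differences were positive, as were 7067 of the 15634 over all genes. Mrpl39 had a signal of 85.4 and 84.2 in KO, against 38.3, 37.2 and 41.5 in WT, and rose by 1.10 ± 0.11 (adjusted p = 0.000124). It was called in the 5 libraries alone (adjusted p = 0.00986) and after length correction (1.03). Mrpl4, Mrps16 and Mrps10 rose by 0.62 ± 0.13, 0.52 ± 0.11 and 0.39 ± 0.08, and passed after length correction. Mrpl4 and Mrps10 lost their call without KO 18 (adjusted p = 0.0741 and 0.0614), and Mrps16 without KO 16 (0.0615). Mrps10 also did not pass after rescaling (0.0777). In the length-corrected fit the list had 12 higher and 0 lower members with a median of 0.19. After rescaling to the same total it had 6 higher and 0 lower, with a median of 0.13. The number higher was 10 without WT 13, 5 without WT 14, 31 without WT 15, 7 without KO 16 and 11 without KO 18.

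Mitochondrial import followed, with 6 of 28 genes higher and 0 lower, and 4 and 1 after length correction. For all tested genes the shares were 4.86% and 7.79%, and 1.9% and 2.45% after length correction. Timm17b and Timm17a, both encoding channel components of the inner membrane translocase, rose by 0.59 ± 0.11 and 0.38 ± 0.07. Timm17a had 178 and 180 in KO, against 135, 138 and 139 in WT. Its longest transcript has 7280 bases, and its length-corrected difference was larger, at 0.62. Rescaling left 3 import genes higher and 2 lower, and 2 were higher without KO 16 and 3 without KO 18, WT 13 or WT 14.

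Proteasome genes were higher in 9 of 47 cases and lower in 0, with a median of 0.22, against 4.86% and 7.79% of all tested genes. Psmb5, which encodes the chymotrypsin-like catalytic subunit, had 416 and 364 in KO, against 188, 153 and 226 in WT, and rose by 1.06 ± 0.13 (adjusted p = 0.000768). The ubiquitin receptor gene Adrm1 rose by 0.40 ± 0.09, with 444 and 470 in KO and 343, 328 and 369 in WT. After length correction 3 members were higher and 0 lower, against 1.9% and 2.45% of all genes. Both genes passed there (0.75 and 0.39), but Adrm1 lost its call without WT 14 or KO 18 (adjusted p = 0.0536 and 0.0971). After rescaling the list split into 4 higher and 3 lower, and after quantile normalization into 4 and 1. The number higher was 4 without WT 13, 2 without WT 14, 14 without WT 15, 4 without KO 16 and 2 without KO 18.

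Splicing and transcription machinery gave mixed counts. All tested genes had 4.86% higher and 7.79% lower, and 1.9% and 2.45% after length correction. Of 42 genes for snRNP and core splicing factors, 8 were higher and 1 lower, and 4 and 1 after length correction, but rescaling turned this to 5 higher and 9 lower. Snrpd2, a core Sm protein gene, rose by 0.50 ± 0.11 with 1161 and 985 in KO and 772, 714 and 784 in WT, but did not pass after length correction, rescaling, quantile normalization or without KO 16 (adjusted p = 0.166, 0.0571, 0.366 and 0.0840). Of 44 RNA polymerase II and Mediator genes, 12 were higher and 4 lower, 2 and 1 after length correction, and 4 and 9 after rescaling. Polr2i, an RNA polymerase II subunit gene with a longest transcript of 819 bases, rose by 0.50 ± 0.10, and Med13, with 10546 bases, fell by 0.68 ± 0.11, and neither passed after length correction (adjusted p = 0.378 and 0.117). Of 48 translation factor genes 9 were higher and 3 lower, 3 and 0 after length correction, but 5 and 13 after rescaling. Without KO 18 the counts were 4 and 0 for splicing, 5 and 1 for RNA polymerase II and Mediator, and 1 and 0 for translation factors. Without KO 16 they were 3 and 1, 3 and 4, and 3 and 5. Without WT 13 they were 6 and 0, 5 and 2, and 4 and 3, and without WT 14 8 and 0, 3 and 3, and 4 and 2. Without WT 15 they were 13 and 2, 14 and 4, and 14 and 3. Eif6, which keeps the large ribosomal subunit from joining the small one, rose by 0.54 ± 0.10, and the scaffold gene Eif4g2 fell by 0.36 ± 0.07. Neither passed after length correction (adjusted p = 0.0893 and 0.962) or without KO 18 (0.0596 and 0.0690).

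Among 42 genes of glutathione metabolism and oxidative stress, 8 were higher and 1 lower, 4 and 1 after length correction, and 3 and 3 after rescaling. The shares over all tested genes were 4.86% and 7.79%, and 1.9% and 2.45% after length correction. Sod1, the cytosolic superoxide dismutase gene, had a signal of 2842 and 2576 in KO, against 1756, 1622 and 1858 in WT, and rose by 0.63 ± 0.11 (adjusted p = 0.00489). It passed after length correction (0.66), but not after quantile normalization (0.19, adjusted p = 0.0544). Gsta4, a glutathione transferase gene, rose by 0.58 ± 0.11, and Prdx6, a peroxiredoxin gene, by 0.41 ± 0.08. Both passed after length correction, and neither passed without KO 18 (adjusted p = 0.0544 and 0.0721), nor did Prdx6 after rescaling (0.0869). The list had 1 of each without KO 18, and 3 higher and 0 lower without KO 16 or WT 14.

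**Figure D2:**
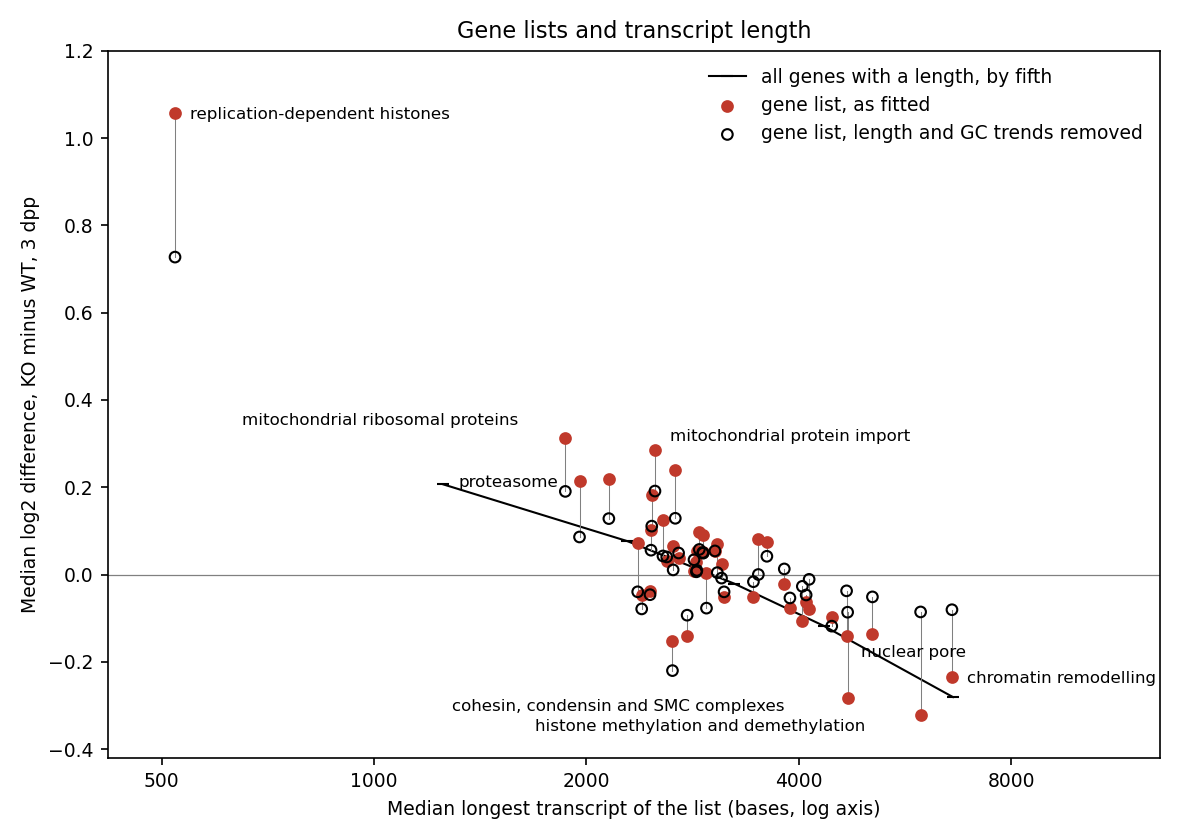
Median log2 difference (KO minus WT, 3 dpp) of each gene list against the median longest transcript of its members (bases, log axis), as fitted (red) and with longest-transcript and GC trends removed (open), joined by a grey line. The black line gives all genes in 5 length bins, from 0.21 to -0.28. Histones lie far above it at 1.06 and still at 0.73 after correction, whereas histone methylation genes move from -0.32 to -0.09.

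Replication-dependent histone genes, short intronless genes that supply histones to newly made DNA, had the largest median of any list, 1.06 over 46 tested of 58 in the files. Their mRNAs are known to end in a stem-loop in place of a poly(A) tail. Of the 46, 12 were higher and 0 lower, and 9 and 0 after length correction with a median of 0.73. The higher ones were 4 H4, 3 H3, 2 H2A, 2 H2B and 1 H1 genes. Their summed signal was 780.9 in KO 16 and 1185 in KO 18, against 311.0, 300.4 and 357.1 in WT. The libraries of KO did not respond alike: 33 of the 46 genes were highest in KO 18 and 7 in KO 16. The list median was 0.32 without KO 18 and 1.95 without KO 16, with 6 and 24 members higher. Without KO 16 or WT 14, 1 member was called lower. The 38 tested members on chromosome 13 and 8 on chromosome 3 lie in clusters. All 12 called ones are on chromosome 13, and near-identical copies share reads, so the value of a single copy is uncertain.

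A few histone genes, H2ac11, H3c3, H4c9 and H3c1, rose in the 5 libraries alone as well, which is why the promoters of 3 of them are shown. H2ac11 had 77.5 and 69.7 in KO, against 7.38, 17.6 and 8.27 in WT (2.72 ± 0.38, adjusted p = 0.00139). H3c3 had 116 and 98.9 in KO, against 13.8, 22.9 and 25.2 in WT (2.36 ± 0.41). H4c9 had 63.7 and 45.6 in KO, against 8.38, 9.40 and 16.4 in WT (2.20 ± 0.34). H3c1 had 38.7 and 40.3 in KO, against 7.36, 11.3 and 9.72 in WT (1.97 ± 0.30). In none of these did the groups overlap, as in 1970 of the 1978 called genes and 41.1% of all tested ones. Without single libraries the log2 differences were 2.50 to 3.08 for H2ac11 and 2.11 to 2.52 for H3c3. They were 1.96 to 2.47 for H4c9 and 1.82 to 2.10 for H3c1. Below are the 250 bases before the start of each gene from RefSeq (GRCm38.p6, chromosome 13, minus strand), H2ac11 at chr13:22042950-22043199, H4c9 at chr13:22041363-22041612 and H3c3 at chr13:23745522-23745771, with each CCAAT or TATAAA on either strand (ATTGG or TTTATA) in capitals.
H2ac11: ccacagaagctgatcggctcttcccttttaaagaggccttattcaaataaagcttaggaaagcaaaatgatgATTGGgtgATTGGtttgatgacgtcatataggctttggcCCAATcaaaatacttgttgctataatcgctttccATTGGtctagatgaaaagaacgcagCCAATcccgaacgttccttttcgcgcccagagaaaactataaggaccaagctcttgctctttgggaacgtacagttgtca
H4c9: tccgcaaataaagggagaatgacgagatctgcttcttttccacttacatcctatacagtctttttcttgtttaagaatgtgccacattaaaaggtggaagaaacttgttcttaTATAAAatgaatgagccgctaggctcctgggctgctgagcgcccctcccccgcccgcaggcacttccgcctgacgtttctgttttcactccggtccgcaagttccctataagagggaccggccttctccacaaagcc
H3c3: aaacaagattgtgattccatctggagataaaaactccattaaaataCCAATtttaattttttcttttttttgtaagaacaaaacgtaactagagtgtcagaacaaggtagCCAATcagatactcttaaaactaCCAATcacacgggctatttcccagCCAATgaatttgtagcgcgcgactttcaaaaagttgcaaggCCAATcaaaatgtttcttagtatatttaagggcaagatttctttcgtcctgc
CCAAT or ATTGG occurred in 34 of 42 histone promoters (81.0%) and in 9 of 11 of called histone genes, against 36.5% of 10811 promoters of tested genes. TATAAA or TTTATA occurred in 21 of 42 and in 4 of 11, against 6.63%. H2ac11 and H4c9 are neighbours, so that their windows lie close to each other. The H2ac11 window also reaches into H2bc11, which begins at chr13:22043198 and was called higher too (2.68 ± 0.55, adjusted p = 0.00905). A match is a run of letters, not a shown binding site.

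Of 11 replacement histone genes, 2 were higher and 0 lower, with a median of 0.27 and 10 positive differences, and 0 of each after length correction. Of 12 genes for histone mRNA factors 1 was higher and 1 lower, with a median of -0.21, and 0 and 1 after length correction. Both kinds together had 3 higher and 1 lower, but 2 and 7 after rescaling. Casp8ap2, which is needed for histone mRNA processing, fell by 0.68 ± 0.11, with 38.4 and 32.7 in KO and 54.0, 54.7 and 64.2 in WT, also after length correction (-0.32, adjusted p = 0.0295). The linker histone gene H1f10 had 383 and 454 in KO, against 266, 227 and 250 in WT (0.75 ± 0.18), and lost its call after length correction (adjusted p = 0.0924), without WT 14 (0.0565) and without KO 18 (0.115). Of 56 DNA replication genes 3 were higher and 1 lower, and 0 of each after length correction, but 1 and 12 after rescaling and 3 and 6 after quantile normalization. As fitted, 4.86% of all tested genes were higher and 7.79% lower.

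In the mTOR pathway itself 5 of 75 genes were higher and 15 lower, with a median of -0.11. All tested genes had 4.86% higher and 7.79% lower, with a median of -0.05. By role, 5 of 12 genes of the PI3K and AKT input were lower and 0 higher, and 4 of 10 subunits of mTORC1 and mTORC2 were lower, Akt1s1 among them, but 1 of each after length correction. Of 10 genes of the TSC complex and RHEB 2 were higher and 1 lower, and 1 and 0 after length correction. Of 26 genes of the Ragulator, the Rag GTPases and their sensors, 1 was higher and 4 lower, and of 17 effectors 2 were higher and 1 lower. Eif4ebp3, an inhibitor of the cap-binding factor eIF4E that mTORC1 phosphorylates, had 118 and 114 in KO, against 68.2, 66.5 and 58.9 in WT. It rose by 0.84 ± 0.09 (adjusted p = 0.000242), also in the 5 libraries alone (0.0348) and after length correction (0.53). Stk11, the gene for the kinase LKB1, which acts upstream of AMPK, rose by 0.32 ± 0.07, also after length correction (0.27), but not after rescaling. Depdc5, a subunit of the GATOR1 complex that restrains mTORC1, fell by 0.36 ± 0.07 but not after length correction (-0.09, adjusted p = 0.535). In the length-corrected fit 5 pathway genes were higher and 2 lower. Rescaling gave 2 higher and 26 lower, and 3 and 4 genes were called without WT 13, 4 and 5 without WT 14, and 4 and 5 without KO 18.

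Among germ cell programs, the meiotic list had the most calls. Of 40 meiotic prophase genes 0 were higher and 7 lower, with a median of -0.14, and 0 and 4 after length correction, where 2.45% of all genes were lower. Mybl1, the transcription factor gene of meiotic prophase, had 1.195 and 1.826 in KO, against 4.95, 5.13 and 4.44 in WT (-1.23 ± 0.22), and still differed after length correction (-0.92, adjusted p = 0.0351). Of 35 genes of undifferentiated spermatogonia 1 was higher and 1 lower. Nanos3, an RNA-binding repressor gene of early germ cells, had 111 and 101 in KO, against 47.3, 36.5 and 71.7 in WT (1.07 ± 0.30, adjusted p = 0.0363). Its call ended after length correction (adjusted p = 0.17) and without WT 13, WT 14, KO 16 or KO 18 (0.0892 to 0.125). In the list of 15 differentiating spermatogonia genes Uba6 alone passed (-0.74 ± 0.13), though not after length correction (adjusted p = 0.0748) or without KO 18 (0.0503). Of 30 genes of DNA methylation and the piRNA pathway, 1 was higher and 4 lower, and 0 of each after length correction. For these germ cell lists, the shares over all tested genes were 4.86% higher and 7.79% lower.

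Retinoic acid, GDNF, FGF and KIT signalling, which govern the choice between renewal and differentiation, had 1 higher and 4 lower of 41 genes, and 0 and 2 after length correction. This compares with 4.86% higher and 7.79% lower over all tested genes, and 1.9% and 2.45% after length correction. Cyp26c1, a retinoic acid hydroxylase gene, had 0.615 and 1.27 in KO, against 3.73, 1.71 and 2.14 in WT (-0.84 ± 0.25, adjusted p = 0.0435). Fgf11 had 1.87 and 0.412 in KO, against 7.10, 7.33 and 4.14 in WT (-1.80 ± 0.35). Both passed after length correction. Cyp26c1 lost its call without WT 13, WT 15, KO 16 or KO 18 (adjusted p = 0.0509 to 0.22) and after quantile normalization (0.0533), and Fgf11 without KO 18 (adjusted p = 0.0767). The Sertoli cell ligand gene Kitl had 2.94 in KO 16 and 9.85 in KO 18, against 14.6, 15.2 and 13.6 in WT, (-1.24 ± 0.35). Its call ended after length correction and without KO 16, WT 13, WT 14 or WT 15 (adjusted p = 0.308, 0.0856, 0.0924 and 0.0548). KO 16, where it was lowest, also had the lowest sum of Sertoli cell markers, and their part in the result was not tested.

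Of 32 genes of glycolysis and the pentose phosphate pathway 4 were higher and 1 lower, 1 of each after length correction, and 3 and 2 after rescaling. All tested genes had 4.86% higher and 7.79% lower, and 1.9% and 2.45% after length correction. Of 24 genes of the TCA cycle 3 were higher and 1 lower, 1 and 0 after length correction, but 1 and 7 after rescaling. Without the genes of chromosomes 8, 13 and 14 both lists had 2 higher and 1 lower. Without KO 18 the counts were 1 and 1 for glycolysis and 1 and 0 for the TCA cycle, and glycolysis had 1 of each without WT 13 or WT 14 too. The hexokinase gene Hk2 had 36.9 and 32.2 in KO, against 66.4, 71.1 and 48.3 in WT (-0.81 ± 0.15), also after length correction (-0.69), and Idh1, the cytosolic isocitrate dehydrogenase gene, fell by 0.34 ± 0.10, but not after length correction (adjusted p = 0.0667) or without any single one of the 5 libraries (0.0634 to 0.19). Lpl, the lipoprotein lipase gene, had 1.40 and 2.38 in KO, against 16.1, 19.8 and 15.9 in WT, and fell by 2.67 ± 0.28 (adjusted p = 0.000187). It passed in the 5 libraries alone (0.00673) and after length correction (-2.60). Pgls, the lactonase gene of the pentose phosphate pathway, had 149 and 179 in KO, against 98.3, 91.2 and 96.8 in WT (0.77 ± 0.13), and passed in the 5 libraries alone (adjusted p = 0.0479) and after length correction (0.69). Pdhb, a subunit gene of pyruvate dehydrogenase, had 244 and 226 in KO, against 139, 130 and 168 in WT (0.70 ± 0.10), also after length correction (0.67). Sterol and fatty acid synthesis had 0 higher and 5 lower of 38, and 0 and 2 after length correction. Acaca, which makes malonyl-CoA for fatty acid synthesis and has a longest transcript of 9513 bases, fell by 0.77 ± 0.09 and by 0.49 after length correction. The desaturase gene Fads2 had 154 and 168 in KO, against 209, 225 and 203 in WT (-0.40 ± 0.10), also after length correction (-0.45), but lost its call without WT 14, KO 16 or KO 18 (adjusted p = 0.0715, 0.108 and 0.0558). The synthesis list had 1 lower member without WT 14, 3 without WT 13 and 2 without KO 16 or KO 18.

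Amd2, a copy of the gene for S-adenosylmethionine decarboxylase of polyamine synthesis, was listed at 0 in KO 16 and KO 18, against 23.8, 21.9 and 30.3 in WT (-4.71 ± 0.31, adjusted p = 3.45e-06). It was the 1 call among 36 genes of polyamine and one-carbon metabolism. The enolase copy Eno1b had 0.154 and 0.471 in KO, against 71.5, 37.4 and 53.5 in WT (-5.36 ± 0.30). Both share sequence with their parent genes, so that reads may be split between the copies, and both passed in the 5 libraries alone and after length correction. The parent gene Eno1 was higher in KO, by 0.47 to 0.58 without single libraries. It was not called without WT 13 or WT 14 (adjusted p = 0.083 and 0.0858). After quantile normalization its difference was 0.19 and did not pass (adjusted p = 0.22). Whether reads moved between the copies was not tested. Tktl2, a transketolase-like gene, had 1.98 and 2.07 in KO, against 34.6, 30.8 and 39.1 in WT (-3.56 ± 0.21).

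Trafficking genes moved in both directions, where 4.86% of all tested genes were higher and 7.79% lower, and 1.9% and 2.45% after length correction. Of 45 endosomal sorting genes 7 were higher and 2 lower, 2 and 1 after length correction, and 4 and 12 after rescaling. Without the genes of chromosomes 8, 13 and 14 the endosomal list had 4 and 1. Without KO 18 it had 2 and 1, and without WT 14 4 and 1. Tom1, an adaptor that carries ubiquitinated cargo on endosomes, had 23.8 and 20.3 in KO and was listed at 0, 0 and 1.74 in WT (4.04 ± 0.80). Vps35, the core of the retromer coat, fell by 0.63 ± 0.09, also after length correction (-0.39). Ptk2b, which encodes the focal adhesion kinase PYK2, had 19.03 and 23.8 in KO, against 2.94, 3.74 and 1.61 in WT (2.61 ± 0.22, adjusted p = 3.15e-05). Cdc42ep3, an effector gene of CDC42, had 17.7 and 28.8 in KO, against 5.42, 7.28 and 6.35 in WT (1.69 ± 0.28). Ptk2b, Cdc42ep3 and Tom1 passed in the 5 libraries alone and after length correction. The p53 and apoptosis list had 6 higher and 2 lower of 34, but 1 of each after length correction and 2 and 7 after rescaling. Without KO 16 it had 1 and 4, without KO 18 2 and 0, without WT 13 2 and 2, and without WT 14 3 and 2. Xiap, an inhibitor of caspases, fell by 1.12 ± 0.22, with 13.9 and 7.42 in KO and 23.8, 24.6 and 21.9 in WT, and passed after length correction (-0.76), but not without KO 18 (adjusted p = 0.0659). Pmaip1, the gene for the BH3-only protein NOXA, had 53.9 and 63.9 in KO, against 24.8, 19.4 and 19.6 in WT (1.43 ± 0.42, adjusted p = 0.0409). It passed in the 5 libraries alone but not after length correction (adjusted p = 0.0572), nor without any single one of the 5 libraries (0.0693 to 0.175). Of the autophagy and lysosome genes, 3 of 52 were higher, a share near the 4.86% over all genes, and 1 lower, but 2 and 11 after rescaling. Without the genes of chromosomes 8, 13 and 14 this list had 1 of each, and the p53 and apoptosis list kept 6 and 2. Map1lc3b and Gabarap, which both encode ubiquitin-like proteins of the autophagosome membrane, rose by 0.50 ± 0.10 and 0.50 ± 0.08 and passed after length correction.

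Several other genes with large differences or a high signal were named by rules that asked for groups without overlap. Most also needed a call in the 5 libraries alone and a call with median-length and GC trends removed. Rtraf, whose product binds the RNA polymerase II and RNA ligase complexes, had 350 and 314 in KO, against 93.3, 101 and 148 in WT (1.56 ± 0.20). Haus4, a subunit gene of the augmin complex that branches spindle microtubules, had 231 and 213 in KO, against 83.9, 65.3 and 77.1 in WT (1.55 ± 0.12). Osgep, an enzyme gene of tRNA threonylcarbamoylation, had 106 and 93.5 in KO, against 45.2, 32.9 and 42.5 in WT (1.30 ± 0.12). Ocel1 rose by 1.44 ± 0.10 and the homeobox gene Hoxb8 by 1.58 ± 0.25. On the lower side, Ddx6, the helicase of P-bodies that represses translation, had 178 and 135 in KO, against 286, 305 and 295 in WT (-0.92 ± 0.12). Ktn1, the gene for kinectin, had 19.2 and 19.9 in KO, against 49.3, 47.3 and 52.2 in WT (-1.30 ± 0.12). Rif1, which sets the timing of DNA replication, had 43.5 and 38.9 in KO, against 70.9, 82.3 and 82.6 in WT (-0.91 ± 0.10). Ubr3, a ubiquitin ligase gene, Csrp1, which encodes a LIM domain protein, and Rex2 fell by 1.15 ± 0.15, 0.93 ± 0.13 and 1.06 ± 0.13. All 11 were called after length correction, a fit of the same contrast. Because most were picked for a call with median-length and GC trends removed, this is no separate result. Groups without overlap were common, with 41.1% of all tested genes and 1970 of the 1978 called ones. The chaperone gene Clgn, whose product calmegin is needed for fertile sperm, fell by 1.10 ± 0.26, but not without WT 14, KO 16 or KO 18 (adjusted p = 0.0549, 0.0615 and 0.0710).

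**Figure D3:**
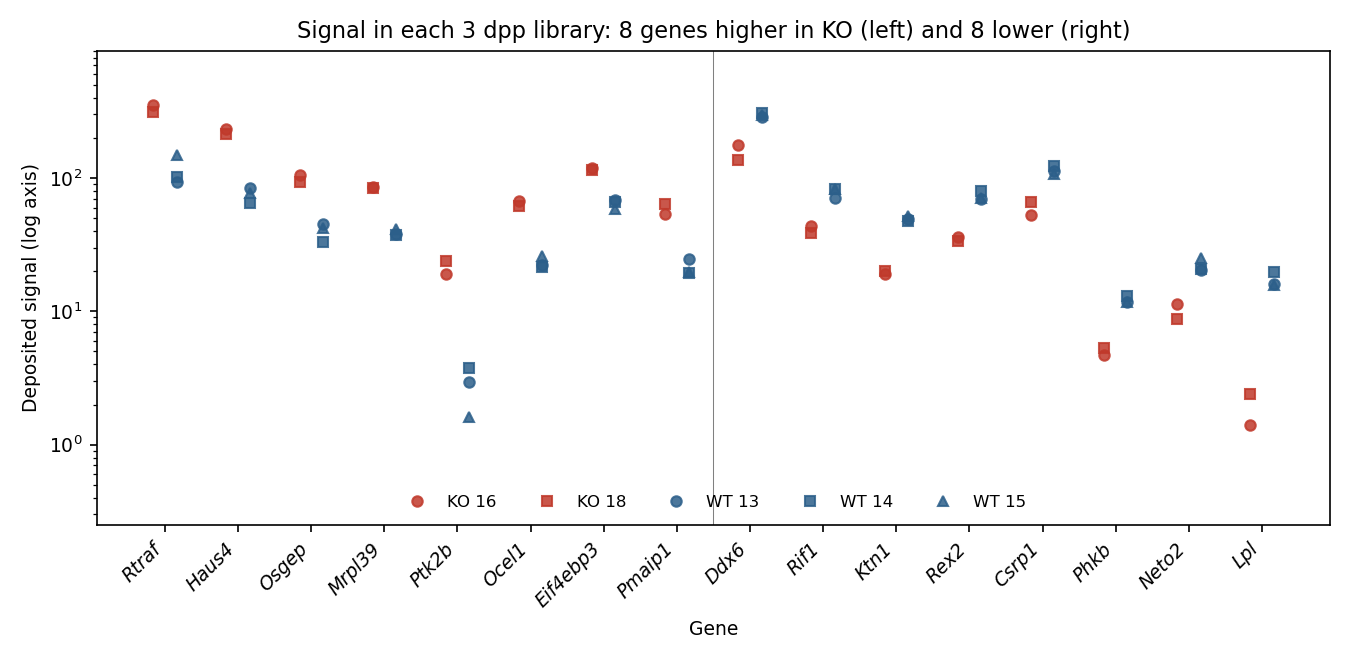
Deposited signal (log axis) in each 3 dpp library for 16 genes, KO in red at the left of each pair and WT in blue at the right. The 16 were taken from the called genes, so that groups without overlap are no separate result. KO and WT do not overlap in any of the 16, nor in 1970 of the 1978 called genes and 41.1% of all tested ones. The genes run from Rtraf (350 and 314 in KO, against 93.3 to 148 in WT) to Lpl (1.40 and 2.38 in KO, against 15.9 to 19.8 in WT).

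Over all tested genes 12.7% were called at 3 dpp in either direction. Chromosome 14 had 16.2% of 464, with 36 higher and 39 lower, chromosome 8 had 15.3% of 726, with 52 and 59, and chromosomes 1, 13 and 17 had 14.7%, 14.6% and 14.3%, all of them near the share over all genes. In the length-corrected fit 596 of 13700 genes were called, with 1.9% of the 13700 higher and 2.45% lower. There chromosome 14 had 9.50% called in either direction, chromosome 13 had 7.96%, chromosome 16 had 6.24% and chromosome 8 had 5.81%. These shares lay above that over all genes in the same fit, with chromosome 14 the furthest. The other ages, which have WT and KO libraries of their own, gave fewer calls, 35 at 7 dpp (0.224%) and 51 in adults (0.326%). Chromosome 14 held 9 of the 27 placed genes called at 7 dpp and 13 of 41 in adults, though 3.39% of the placed tested genes lie there. Chromosome 8 held 8 of 27 and 10 of 41, with 5.30% of the placed tested genes. At 7 dpp chromosome 13 held 5, the histone genes H4c2, H4c3, H2bc11, H3c3 and H4c9, which were all higher in KO (1.91 to 4.31). Within 10 Mb of Akt1s1 on chromosome 7, 11 of 153 genes were higher and 7 lower (11.8%), a share near the 12.7% over all genes. Without the genes of chromosomes 8, 13 and 14, 1688 genes were still called at 3 dpp.

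**Figure D4:**
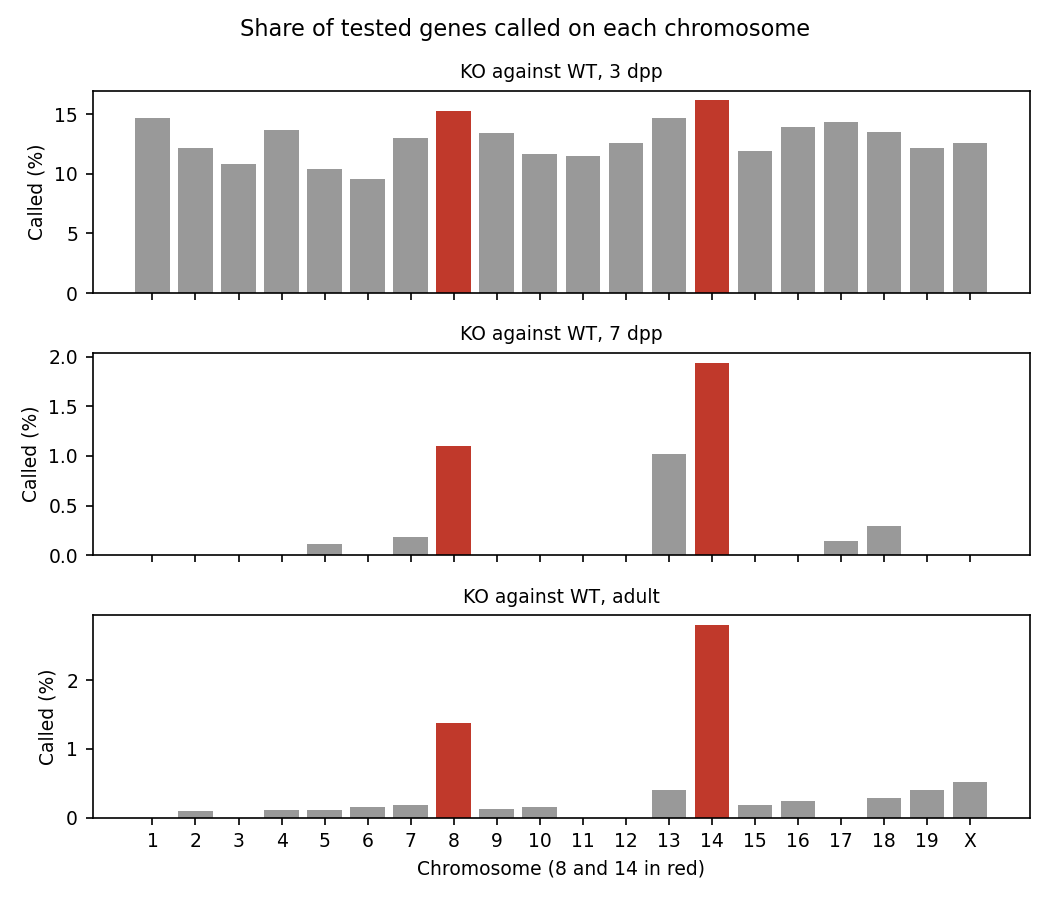
Share of tested genes (%) called between KO and WT on each chromosome at 3 dpp, 7 dpp and in adults, with a separate scale for each age and chromosomes 8 and 14 in red. Chromosome 14 is the highest at each age, with 16.2% at 3 dpp, 1.94% at 7 dpp and 2.80% in adults.

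Of the 1978 genes called at 3 dpp, 19 were called at all 3 ages, all with the same sign at each age, 11 higher and 8 lower. Of these, 6 are provisional and 13 have a place in the annotation, 8 on chromosome 14, 2 on chromosome 8 and 1 each on chromosomes 7, 13 and 18. Ptk2b on chromosome 14 differed by 2.61, 2.83 and 2.69 at 3 dpp, 7 dpp and in adults. Its neighbours in this list Rcbtb2 (1.197, 1.43 and 1.42), Entpd4 (0.81, 0.91 and 0.95), Tox4 (0.66, 0.66 and 0.69), Rtraf (1.56, 1.25 and 1.40) and the heart myosin gene Myh6 (0.68, 0.98 and 0.87) were also higher at each age, though Myh6 was not called at 3 dpp without KO 16 or KO 18 or after rescaling (adjusted p = 0.0626, 0.0697 and 0.0554). Haus4 had 1.55, 0.67 and 0.68. The retinoblastoma tumour suppressor gene Rb1, on the same chromosome, was lower (-0.66, -0.49 and -0.52). On chromosome 8, Tktl2 differed by -3.56, -3.79 and -2.30, and the complex I subunit gene Ndufb7 by -0.81, -1.20 and -0.56. H4c9 on chromosome 13 had 2.20, 1.91 and 2.06, and Eno1b on chromosome 18 had -5.36, -5.18 and -4.24. Akt1s1 had -0.56, -0.69 and -0.57. Among the unplaced names, chosen here after their values were seen, LOC675278 had a signal of 1.68 and 6.26 in KO, against 1330, 1304 and 1740 in WT, at 3 dpp, and LOC100041000 had 2457 and 2369 in KO, against 21.8, 28.8 and 36.8 in WT.

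**Figure D5:**
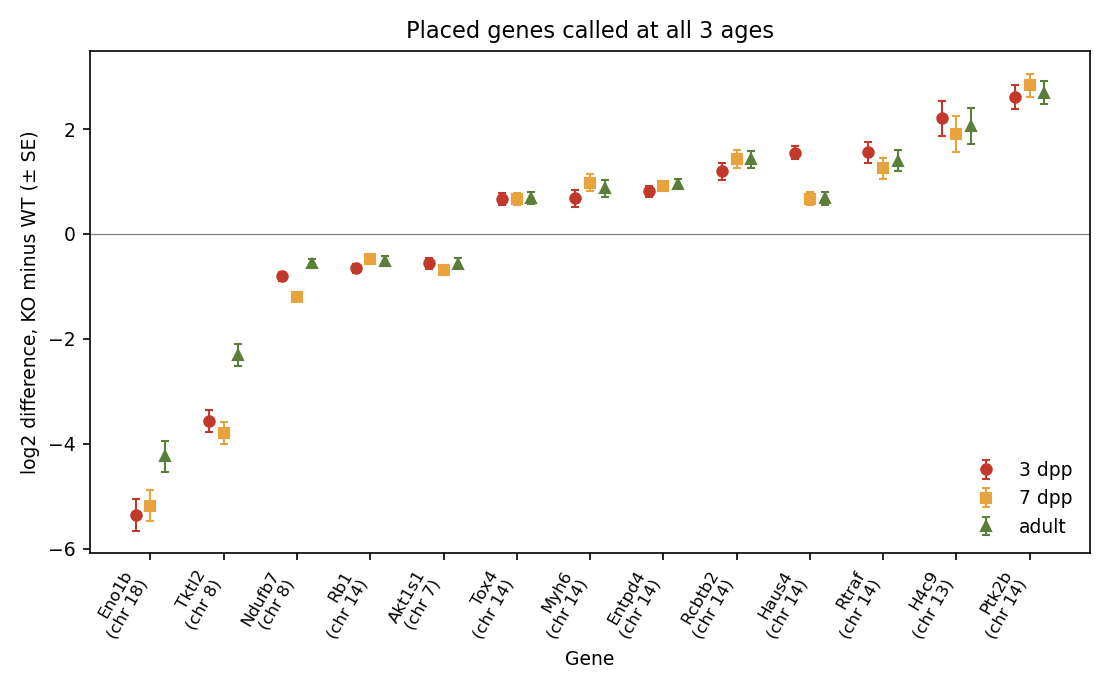
log2 difference (KO minus WT ± SE) at 3 dpp, 7 dpp and in adults of the 13 placed genes called at all 3 ages, with their chromosome. Each gene keeps its sign, and Haus4 stands at 1.55 at 3 dpp against 0.67 and 0.68 at the other ages.

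Most calls at 3 dpp were not calls at the other ages. Of the 760 genes higher at 3 dpp, 19 were called higher at 7 dpp and 19 in adults, and of the 1218 lower ones, 10 and 15 were called lower. Among the 760, 45.3% had a positive difference at 7 dpp, where 51.5% of all tested genes did, and 73.4% in adults, where 46.8% of all did. Among the 1218, 46.1% had a negative difference at 7 dpp (48.5% of all) and 52.9% in adults (53.03% of all). The difference between ages was itself called for 437 genes between 3 and 7 dpp, 131 of them positive and 306 negative, and for 216 between 3 dpp and adults, 60 and 156. After length correction these counts were 47 and 11.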

How the data were processed

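Each deposited column holds 1 library's signal, which the authors made, per the submitters' processing notes, with Trim Galore, kallisto, DESeq2 and the build mm10, the order and versions not given in the sources used here. Each signal behaves as TPM with 2 decimals times 1 factor per library, so the depth is unknown and no counting error can be given. Because the signal is not a count, limma-trend on log2(signal + 1) was used (R 4.3.3, limma 3.58.1), with all 15 libraries, a mean for each of 6 groups (9 residual degrees of freedom) and Benjamini-Hochberg adjustment over the 15634 tested genes at 0.05. Fold changes understate the change of low genes.

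The members, gene lists and the rule for named genes were chosen with earlier results of these data known. Named were Akt1s1 and Pou5f1, up to 12 genes per direction called in 3 fits with a mean signal of at least 5, up to 4 (in lists of over 60, 6) called members per list with the smallest p, up to 6 per direction with a mean signal of at least 50, and up to 6 with the smallest p on each of the 2 chromosomes with the highest share called and within 10 Mb of Akt1s1. The 3 fits were the main one, that of the 5 libraries alone and that with median-length and GC trends removed. Ribosomal protein and oxidative phosphorylation genes were left to the counts. Genes called at all ages, Ndufb7 among them, were named after their values were seen, as were the alternatives with the longest transcript and without chromosomes 8, 13 and 14 chosen.

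Gene names, 20813 of which matched RefSeq (GRCm38.p6), were updated where unique, and lengths and GC content came from GENCODE transcripts for 20767. Length and GC trends were removed per library with natural splines (5 degrees of freedom). Motif shares use the first promoter listed per gene. The test was run on simulated data first. One gene list and 1 of its members are not reported here.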

Additional observations from a re-analysis of the deposited data

Results flagged for a closer look

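The genotype effect at 3 dpp differed from that at 7 dpp or in adults, by the contrast between ages in the same limma fit (adjusted p under 0.05), for some of the strongest genes. The values are log2 differences at 3 dpp minus those at the other age.

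Against 7 dpp, the effect at 3 dpp was lower for Amd2 (-4.92), Defb46 (-3.45), Ubr3 (-1.14), Ddx6 (-1.002), Rex2 (-0.93) and Ktn1 (-0.73), and higher for Tom1 (5.59), Haus4 (0.88) and Ocel1 (0.85). Against adults it was lower for Amd2 (-5.04), Lpl (-2.51), Ubr3 (-1.25), Csrp1 (-0.95) and Ddx6 (-0.91), and higher for Cdc42ep3 (1.96), Ocel1 (1.06) and Haus4 (0.87). Haus4 and Ocel1 were nonetheless higher in KO at 7 dpp too (0.67 and 0.59, both called). Amd2 was near 0 at both other ages (0.21 and 0.33). Lpl was lower in KO at 7 dpp as well (-2.31), and Defb46 in adults (-3.30) but not at 7 dpp (0.03). Over all genes, 437 differed between 3 and 7 dpp and 216 between 3 dpp and adults. These numbers were 76 and 54 without WT 13, 89 and 30 without WT 14, 164 and 45 without KO 18, 748 and 602 without KO 16, and 1111 and 145 without WT 15.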

How the results depend on the processing

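No paired analysis was possible because each library number occurs once, so that KO and WT libraries share none.

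The number of genes called at 3 dpp, 1978, became 72 in the 5 libraries alone, 797 in the 10 libraries of 3 and 7 dpp, 3457 after rescaling, 1248 with length and GC trends removed and 596 with the longest transcript used in their place, and 790 to 2117 without single libraries. Against 7 dpp, the 437 genes whose genotype effect differed became 270 without a filter, 1686 after rescaling, 135 without a mean-variance trend, 272 with the length trend removed and 47 with the longest-transcript trends removed, and 76 to 1111 without single libraries. The 216 against adults became 334 with a stricter filter, 1215 after rescaling, 67 without a mean-variance trend, 36 with length and GC trends removed, 11 with the longest-transcript trends removed and 30 to 602 without single libraries. The length rho of -0.30 became -0.46 with the longest transcript. Over the 181 named genes and all settings, 2395 results kept their direction and side of the threshold, 636 kept their direction but no longer passed, and 0 reversed. Of the 178 that a stricter filter kept and the 138 outside chromosomes 8, 13 and 14, 0 changed their side of the threshold in those settings. A pseudocount of 0.1 ended 3 calls. The causes were not tested. Without a known depth, no limit on low values can be given.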
